A study of Mus musculus with 8 samples.

Results

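Zinc finger gene promoters were followed through an ATAC-seq comparison of mouse kidney tubuloids, as the peaks whose centre lies within 1000 bp of a transcription start site and whose gene symbol is Zfp, Znf, Zbtb, Zkscan or Zscan followed by a number. The rule gave 126 peaks at 119 genes, among 4162 promoter peaks and 6425 peaks in all. ATAC-seq reads out open chromatin through the Tn5 transposase, which cuts and tags DNA that is not shielded by nucleosomes. Tubuloids are primary cultures of renal tubular epithelial cells grown in Matrigel, here from the kidney cortex of wildtype mice. One group of 4 libraries came from tubuloids given vehicle and the other group of 4 from tubuloids given myoglobin, the haem protein that damaged muscle releases, and all were taken at 12 h with 50000 cells per library. The study's design text names 4 mice, but no label ties a library to a mouse, so p-values measure the spread between these libraries, which may be technical. No allele or second agent is named in the labels, and no label says whether animals were pooled.

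Most genes with these symbols encode C2H2 zinc finger proteins, in which strings of small zinc-binding modules read DNA sequence. Many carry a KRAB domain that recruits the corepressor Trim28 and, through it, histone methyltransferases such as Setdb1, and this family is best known for silencing transposable elements. The Zbtb proteins carry instead a BTB domain, which pairs the proteins and recruits corepressors, and the Zscan and Zkscan proteins carry a SCAN domain for pairing. The label was checked against the gene descriptions in the deposited table, which call 112 of the 119 genes zinc finger genes, and all 119 are protein coding. The other 7 are Zfp446, Zfp790, Zfp975 and Zfp429, which are described in other words, the ubiquitin ligases Znf598 and Zfp91, and Zfp36l2, an RNA-binding protein that speeds the decay of messenger RNA. A further 47 promoter peaks belong to genes described as zinc finger genes under other symbols and were not counted as members.

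The sequences just upstream of 7 member genes show how unlike each other these promoters are. They are the genes with the smallest unadjusted p in each direction (Zbtb18 and Zfp664 higher with myoglobin, Znf503 and Zfp386 lower) and those with the highest mean over all 8 libraries (Zfp78, Zbtb5 and Zfp868), among members with at least 100 upstream bases inside their peak in the RefSeq promoter table of GRCm38.p6. These genes were chosen after their values were seen. Each sequence ends at or before the start of the gene, and capitals mark matches, on either strand, to any of 12 motifs that are spelled out further on, mostly GGGCGG, which reads CCGCCC on the other strand, and CCAAT, which reads ATTGG there. The positions are Zbtb18 (chr1:177442101-177442350, plus strand), Zfp664 (chr5:124862455-124862690, plus strand), Znf503 (chr14:21989602-21989851, minus strand), Zfp386 (chr12:116047474-116047723, plus strand), Zfp78 (chr7:6363058-6363279, plus strand), Zbtb5 (chr4:45012413-45012662, minus strand) and Zfp868 (chr8:69625549-69625798, minus strand).
Zbtb18: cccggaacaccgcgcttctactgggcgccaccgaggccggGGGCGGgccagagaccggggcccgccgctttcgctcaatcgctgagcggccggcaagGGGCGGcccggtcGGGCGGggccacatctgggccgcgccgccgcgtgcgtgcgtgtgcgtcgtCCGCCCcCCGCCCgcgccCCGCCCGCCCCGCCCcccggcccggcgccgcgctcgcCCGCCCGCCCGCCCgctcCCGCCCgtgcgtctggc
Zfp664: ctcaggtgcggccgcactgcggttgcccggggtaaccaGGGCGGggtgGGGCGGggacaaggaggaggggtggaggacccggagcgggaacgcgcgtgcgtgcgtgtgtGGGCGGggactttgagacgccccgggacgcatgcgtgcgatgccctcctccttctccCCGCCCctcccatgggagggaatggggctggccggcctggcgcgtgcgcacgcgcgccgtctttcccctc
Znf503: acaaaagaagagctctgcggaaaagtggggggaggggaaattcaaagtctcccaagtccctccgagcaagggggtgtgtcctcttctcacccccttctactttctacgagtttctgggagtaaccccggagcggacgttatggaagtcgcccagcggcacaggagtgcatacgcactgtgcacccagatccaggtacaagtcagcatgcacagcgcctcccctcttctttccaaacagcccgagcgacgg
Zfp386: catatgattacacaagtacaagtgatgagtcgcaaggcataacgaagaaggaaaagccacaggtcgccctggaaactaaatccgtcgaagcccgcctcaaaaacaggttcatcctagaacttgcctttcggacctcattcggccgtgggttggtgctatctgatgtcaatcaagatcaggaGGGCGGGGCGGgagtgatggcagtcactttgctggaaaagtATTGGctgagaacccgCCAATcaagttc
Zfp78: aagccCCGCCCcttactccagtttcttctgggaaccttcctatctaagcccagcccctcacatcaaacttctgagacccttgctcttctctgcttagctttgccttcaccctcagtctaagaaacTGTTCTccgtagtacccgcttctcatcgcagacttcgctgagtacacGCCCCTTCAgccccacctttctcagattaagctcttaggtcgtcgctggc
Zbtb5: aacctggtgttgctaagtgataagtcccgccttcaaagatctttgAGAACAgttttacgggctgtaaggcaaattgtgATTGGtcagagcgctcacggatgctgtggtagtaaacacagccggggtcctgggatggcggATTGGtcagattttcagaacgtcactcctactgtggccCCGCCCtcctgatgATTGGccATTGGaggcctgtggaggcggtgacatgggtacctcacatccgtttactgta
Zfp868: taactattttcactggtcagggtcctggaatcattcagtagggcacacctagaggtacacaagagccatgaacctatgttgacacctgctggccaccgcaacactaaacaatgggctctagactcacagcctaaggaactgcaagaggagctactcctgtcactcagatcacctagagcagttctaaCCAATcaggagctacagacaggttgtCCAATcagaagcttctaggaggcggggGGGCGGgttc
The Zbtb18 stretch is 84.0% G or C and holds 12 matches, all of them GGGCGG. The Znf503 stretch, from the gene with the smallest p among these lower members, is 57.2% G or C and holds no match to the 12 motifs. The stretches of the high peaks were 53.2% G or C for Zfp78, 52.4% for Zbtb5 and 51.2% for Zfp868, and that of Zfp386 was 50.4%. Zbtb5 holds 4 CCAAT matches, and Zfp868 and Zfp386 hold 2 each.

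No zinc finger gene promoter passed the test between myoglobin and vehicle. With limma on log2(value + 1) and Benjamini-Hochberg adjustment over all 6425 peaks, 0 of 126 members had an adjusted p under 0.05, and the lowest was 0.0753 at Znf143. The same test called 16 peaks in the whole table (0.249%) and 3 of the 4036 other promoter peaks (0.0743%), so 0 of 126 lies near the background. At an unadjusted p under 0.05, 6 members were higher with myoglobin and 5 were lower, together 8.73% of the members. Of the other promoter peaks 3.57% were higher and 3.34% lower at that level, and of all peaks 7.6% were in either direction. The libraries of both groups failed to overlap at 2 members in the higher direction and 1 in the lower, or 2.38% of the members. Among other promoter peaks these shares were 1.49% higher and 1.41% lower, so the members' counts lie near the background. In pooled cells, fewer cells with an open site and a site less open in each cell cannot be told apart.

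**Figure D1:**
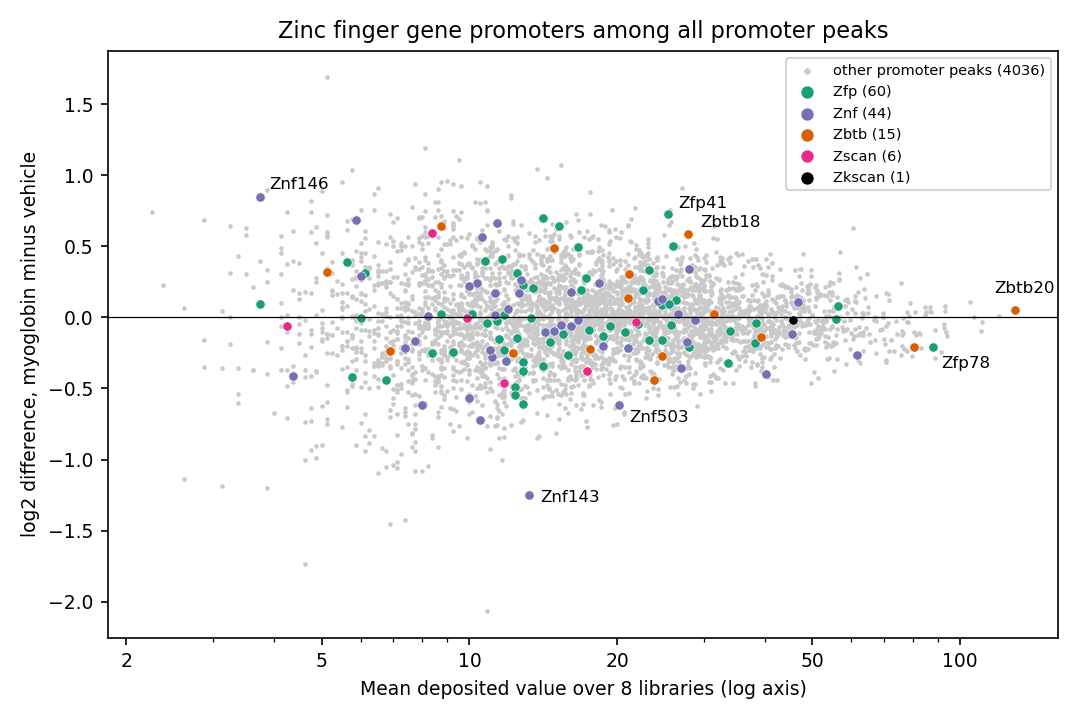
Difference between myoglobin and vehicle (log2 of value + 1, y axis) against the mean deposited value over 8 libraries (x axis, log scale) for the 126 zinc finger promoter peaks (coloured by symbol prefix) and the 4036 other promoter peaks (grey). The members spread around 0 like the other promoters, with Znf143 lowest at -1.25.

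The middle of the distribution lay close to 0. The median log2 difference over the members was -0.04, with the middle 50% between -0.23 and 0.19, against -0.01 over the other promoter peaks and -0.02 over all peaks. There were 73 members below 0 and 53 above it, or 57.9% below, against 51.2% of other promoters. The median size of the difference, without its sign, was 0.22 for members and 0.18 for other promoters. Member peaks took 2.91%, 2.89%, 2.88% and 2.75% of all promoter value in the vehicle libraries and 2.84%, 2.93%, 2.74% and 2.69% in the myoglobin libraries. The groups overlapped, with means of 2.86% ± 0.0706 and 2.80% ± 0.107 (SD, n = 4 each).

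Depth differed between the groups beside every one of these comparisons. The deposited values are scaled to a near-equal total, of 124415 to 126782 per library, but the reads behind them were estimated from the steps in each column as 130223 to 200367 in vehicle libraries and 67606 to 124453 in myoglobin libraries. The estimated depths do not overlap, so treatment and depth cannot be told apart at the level of a library. The median coefficient of variation of a member peak was 20.9% over the vehicle libraries and 26.8% over the shallower myoglobin libraries, against 19.9% and 25.2% for other promoters. Marker genes fixed for endothelial cells, fibroblasts and pericytes, immune cells and podocytes had a peak in 0 of 4 genes each, while Cdh1 and Epcam (2 of 4 epithelial markers), Cryl1 (1 of 6 proximal tubule markers) and Cdh16 and Scnn1g (2 of 6 loop, distal and collecting duct markers) had one.

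Among the Znf and Zfp members, which make up 104 of the 126 peaks, Znf143 stood lowest. Znf143 is a transcription factor that binds many promoters and activates genes of small nuclear RNAs. Its only member peak (chr7:110061885-110062073, mm10) is centred 762 bp downstream of the start site. The values were 17, 19, 14 and 23 in the vehicle libraries and 3, 6, 7 and 17 in the myoglobin libraries. Of the myoglobin libraries 3 lay below every vehicle library, and replicate 4 lay within the vehicle range. The means were 18.2 ± 3.77 and 8.25 ± 6.08 (SD, n = 4 each), from about 98 and 27 estimated reads. The log2 difference was -1.25 ± 0.33 (SE), with limma's adjusted p = 0.0753. This SE is limma's and draws its variance mostly from a trend over all peaks, not from these 8 values alone. An exact two-sided permutation test of the 8 values gave p = 0.0857. The call turned on single libraries: adjusted p was 0.00719 without myoglobin replicate 4 and 0.0329 without myoglobin replicate 3, and reached 0.478 at most when another library was left out.

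Zfp41 had the largest positive difference among members whose libraries did not overlap. The values at its peak (chr15:75616414-75616671) were 15, 14, 21 and 27 with vehicle and 34, 31, 30 and 31 with myoglobin. Every myoglobin library lay above every vehicle library, with 3 units between the nearest. The means were 19.2 ± 6.02 and 31.5 ± 1.73, the log2 difference was 0.73 ± 0.22 (SE), and limma's adjusted p was 0.197. In 8 libraries an exact permutation test cannot go below p = 0.0286, which is the value here. Any peak whose groups do not overlap gets this value. Zfp41 was picked for such groups, so this p adds no support.

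The remaining Znf and Zfp peaks with an unadjusted p under 0.05 fell on both sides of 0. Zfp341, whose human counterpart is a transcription factor for STAT3, had values of 17, 22, 29 and 18 with vehicle and 35, 34, 24 and 29 with myoglobin (log2 difference 0.50, limma's adjusted p = 0.575). At Zfp664 the values were 8, 13, 11 and 15 against 19, 17, 15 and 24, and at Zfp511 they were 10, 12, 7 and 12 against 23, 23, 9 and 17. Both sites also held one end of another coding gene's span within 1000 bp of the peak centre, Ccdc92 for Zfp664 and Tubgcp2 for Zfp511. Znf281, a regulator of stem cell and mesenchymal genes, gave 6, 11, 9 and 8 against 15, 14, 19 and 9 (log2 difference 0.67, adjusted p = 0.62). On the lower side, Znf503, a repressor in developing tissues, gave 24, 31, 25 and 18 against 17, 21, 11 and 14 at a peak centred 1 bp from the start site. Zfp386 gave 16, 16, 17 and 13 against 6, 11, 9 and 15, and Znf775 gave 16, 13, 10 and 11 against 10, 2, 7 and 15. In each of these 7 peaks the groups overlapped, and the lowest adjusted p was 0.551, at Znf503. Zfp341, Zfp511, Zfp664, Znf503, Zfp386 and Znf775 were chosen after their values were seen.

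**Figure D2:**
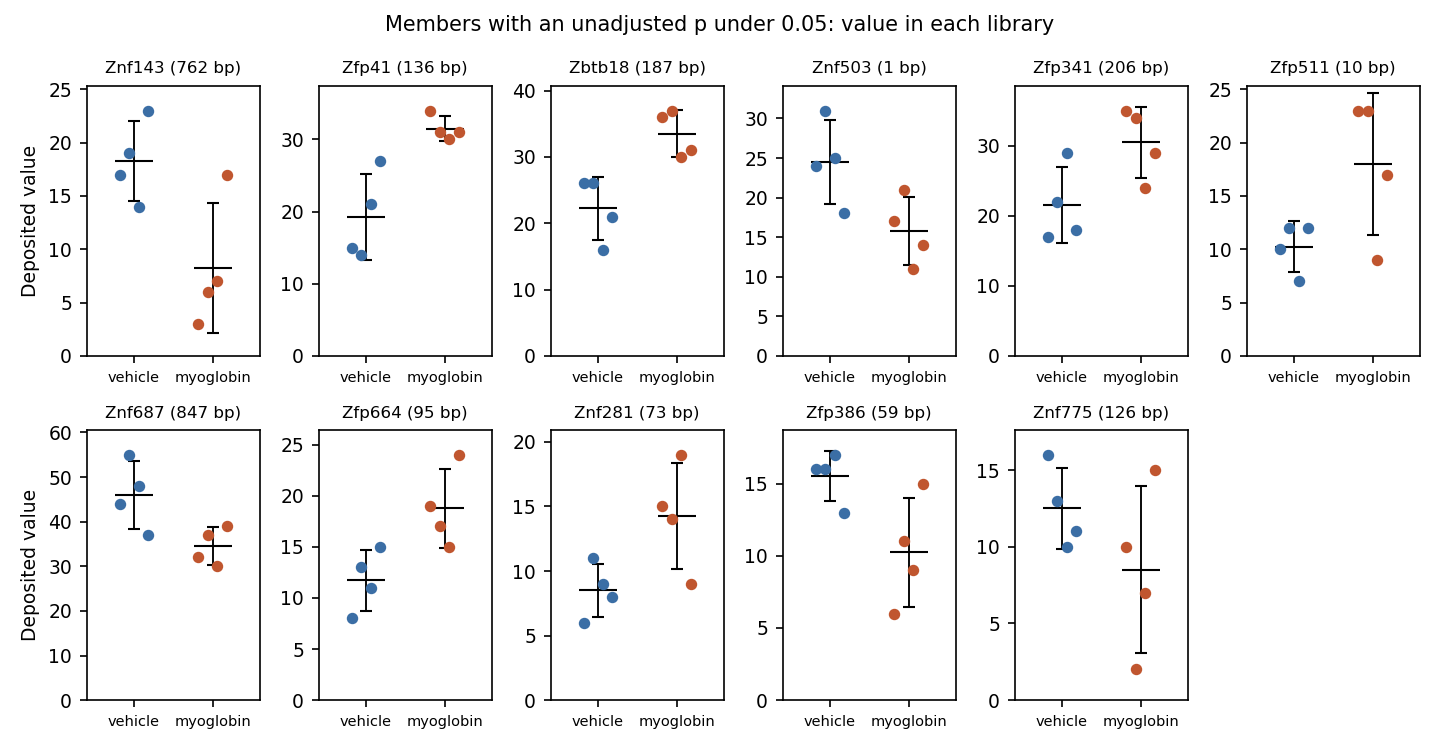
Deposited value in each of the 4 vehicle and 4 myoglobin libraries for the 11 member peaks with an unadjusted p under 0.05; each point is 1 library, with the group mean and SD in black. The groups are apart at Zfp41 and the nearer Zbtb18 peak, and at Znf143 they overlap through a myoglobin value of 17.

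Znf687, part of a chromatin complex with Zmynd8 and Znf592, had a pair of member peaks. The peak 847 bp from the start site gave 44, 55, 48 and 37 with vehicle and 32, 37, 30 and 39 with myoglobin (log2 difference -0.40, adjusted p = 0.575), and the peak at 159 bp gave 70, 64, 67 and 67 against 61, 66, 50 and 47 (log2 difference -0.27, adjusted p = 0.653). Both had lower myoglobin means, and both overlapped. Its partner Znf592 had means of 19.8 ± 3.86 and 17.8 ± 5.91, with a log2 difference of -0.20.

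Other members with well-known roles had differences on both sides of 0. Zfp809, which recognises retroviral sequences and brings in Trim28, gave 24, 27, 21 and 23 with vehicle and 24, 26, 21 and 31 with myoglobin (log2 difference 0.09, adjusted p = 0.956). Znf568, a KRAB protein that silences a placental transcript of Igf2, gave 16, 14, 19 and 18 against 19, 15, 17 and 15 (log2 difference -0.02, adjusted p = 0.995). At Zfp36l2 the peak nearest to the start site gave 22, 30, 17 and 20 against 15, 24, 30 and 18 (log2 difference -0.05), and the peak at 660 bp gave 0.21. For Zfp91, a ubiquitin ligase whose peak lies near one end of Lpxn, the values were 14, 15, 17 and 13 against 9, 14, 7 and 10 (log2 difference -0.55, adjusted p = 0.684). All 5 peaks overlapped between groups.

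The Zbtb members, transcription factors with a BTB domain, included the peak with the highest mean in the table. Zbtb20, a repressor known for switching off alpha-fetoprotein in the liver, gave 125, 135, 135 and 113 with vehicle and 140, 136, 125 and 126 with myoglobin at a peak 834 bp wide (chr16:42875022-42875855). Its vehicle mean was 127 ± 10.5, its mean over all 8 libraries ranked 1 of all 6425 peaks, and the log2 difference was 0.05 ± 0.10 (SE; adjusted p = 0.942). By the mean over all 8 libraries, the next highest members were Zfp78 at 88.0 (rank 18), Zbtb5 at 80.6 (rank 33), Znf687 at 61.5 (rank 109) and Zfp868 at 56.4 (rank 148). Their peaks were 817, 608, 308 and 567 bp wide, and these ranks do not correct for width. Per 100 bp of peak the vehicle means were 15.2 at Zbtb20, 11.5 at Zfp78, 14.2 at Zbtb5, 21.8 at Znf687 and 9.66 at Zfp868. Over 15 Zbtb peaks at 14 genes, the median log2 difference was 0.02, with 8 above 0 and 7 below, and 0 were called.

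Zbtb18, a repressor needed for neurons of the cortex, had peaks at 187 bp and 535 bp upstream of the start site. The nearer peak (chr1:177441999-177442328) gave 26, 26, 16 and 21 with vehicle and 36, 37, 30 and 31 with myoglobin. Its groups did not overlap, and the log2 difference was 0.59 ± 0.20 (SE; limma's adjusted p = 0.376). The farther peak gave 18, 11, 13 and 11 against 14, 15, 9 and 7, with a log2 difference of -0.25 ± 0.30. The far peak minus the near peak differed between groups by -0.84 ± 0.26, with an exact permutation p = 0.0286, or 0.2 adjusted over the 7 genes that have more than 1 member peak. For the other 6 of these genes the adjusted exact p ran from 0.4 (Znf146) to 1.0 (Znf367). Zbtb14 was the only member with non-overlapping groups in the lower direction, with 25, 29, 28 and 26 against 24, 21, 21 and 23 and a log2 difference of -0.27 ± 0.21 (SE; adjusted p = 0.819).

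By symbol in the deposited table, there were 6 Zscan peaks and 1 Zkscan peak. Znf18, counted among the Znf members, is named Zkscan6 in RefSeq and had a log2 difference of 0.26. SCAN domains in members with other symbols were not looked for. The Zscan median was -0.05, and 5 of the 6 lay below 0, with the exception of Zscan12 at 0.59. Of the other promoter peaks 51.2% lay below 0. Zscan22 had the lowest value, -0.46 (adjusted p = 0.761). Zkscan5 had means of 45.8 ± 6.34 and 45.5 ± 8.66, with a log2 difference of -0.02.

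Genes of the machinery that these proteins recruit were listed beside them, as 34 corepressor and cofactor genes. Of these, 11 had a promoter peak, in 12 peaks, and 0 of 12 were called. Trim28 and Setdb1 had none in the table used here. The median log2 difference was -0.11, and 9 of 12 lay below 0, beside -0.01 and 51.2% below 0 for the other promoter peaks. The list is short, and no test over it was run. Trim24, a relative of Trim28, gave 32, 25, 23 and 29 against 16, 24, 13 and 28 (log2 difference -0.46, adjusted p = 0.633), and Trim33 gave 8, 9, 7 and 10 against 5, 5, 9 and 5 (log2 difference -0.47, adjusted p = 0.839). At Hdac2, a histone deacetylase, the difference was 0.23, and at Mphosph8, which helps silence repeats, it was -0.02.

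In level, zinc finger promoters lay close to the other promoters. The vehicle median was 15.2 against 17.5 for other promoter peaks, and per 100 bp of peak it was 7.70 against 7.87, with median peak widths of 204.5 bp and 224 bp. A mean value over all 8 libraries of at least 10 was reached by 103 members (81.75%) and 79.44% of other promoters. A vehicle mean of 40.2 or more was reached by 12 members (9.52%) and 10.2% of other promoters, and a mean of 7.25 or less by 13 members (10.32%) and 10.3% of others. Of the 15 Zbtb peaks, 3 reached 40.2. The lowest members by the mean over all 8 libraries were Znf146 (1, 2, 2 and 5 with vehicle and 4, 8, 4 and 4 with myoglobin), Zfp976 (7, 3, 3 and 2 against 4, 3, 4 and 4) and Zscan29 (4, 9, 1 and 4 against 1, 5, 6 and 4), where differences of a few units are all the data hold. No member was at 0 in any library.

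**Figure D3:**
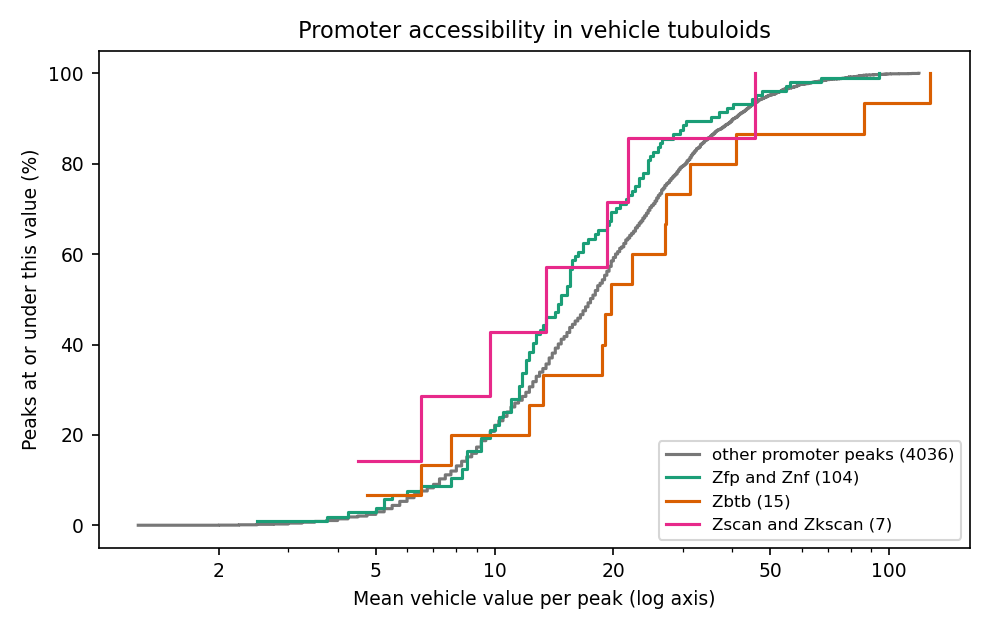
Percent of peaks at or under each mean vehicle value (x axis, log scale) for 104 Zfp and Znf peaks, 15 Zbtb peaks, 7 Zscan and Zkscan peaks and 4036 other promoter peaks. The Zfp and Znf curve lies near that of the other promoters, and the Zbtb curve ends at Zbtb20, at 127.

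A promoter peak was found at a larger share of zinc finger genes than of other genes. Of 465 coding genes with these symbols in RefSeq (counting Znf genes under their RefSeq name), 119 (25.6%) had a member peak. Among other coding genes 3704 of 21435 (17.3%) had a promoter peak. All 119 member genes were matched to RefSeq, but only 3830 of all 4038 genes with a promoter peak were. Unmatched genes cannot count in the share of other genes, and the size of this effect was not tested. The share was 37.5% for Zscan genes (6 of 16), 34.1% for Zbtb (14 of 41), 24.4% for Zfp (97 of 397) and 18.2% for Zkscan (2 of 11). The Zkscan genes with a peak were Zkscan5 and Zkscan6, which is Znf18 in the deposited table. On chromosome 2 it was 12.1%.

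Members sat in clusters along the genome, as zinc finger genes do. Chromosome 7 held 28 members (22.2%) against 7.80% of other promoters, chromosome 17 held 11.9% against 4.81%, and chromosome 13 held 7.94% against 3.64%. On chromosome 7, 21 of the 28 members lay below 0, with a median of -0.12. For the 315 other promoters there the median was -0.03, with 54.6% below 0. With gaps of at most 500 kb, 30 members (29 genes) fell in 9 runs of at least 3 genes, and in 4 of the 9 runs every member lay below 0. Runs of other promoters were not drawn up for comparison. In the run at chr7:12881022-12978306 (Znf8, Zscan22 and Zfp446) the 3 differences ran from -0.46 to -0.28, and in the run at chr7:6155939-6383436 (Znf787, Zfp444, Zfp78 and Zfp28) the 4 ran from -0.21 to -0.09. A run on chromosome 8 (Zfp868, Zfp869 and Zfp963) had a vehicle median of 54.8, in peaks 567, 699 and 320 bp wide. Per 100 bp of peak its vehicle means were 9.66, 8.01 and 8.28, beside a median of 7.87 for other promoters. No peak in any of the 9 runs reached an unadjusted p under 0.05.

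**Figure D4:**
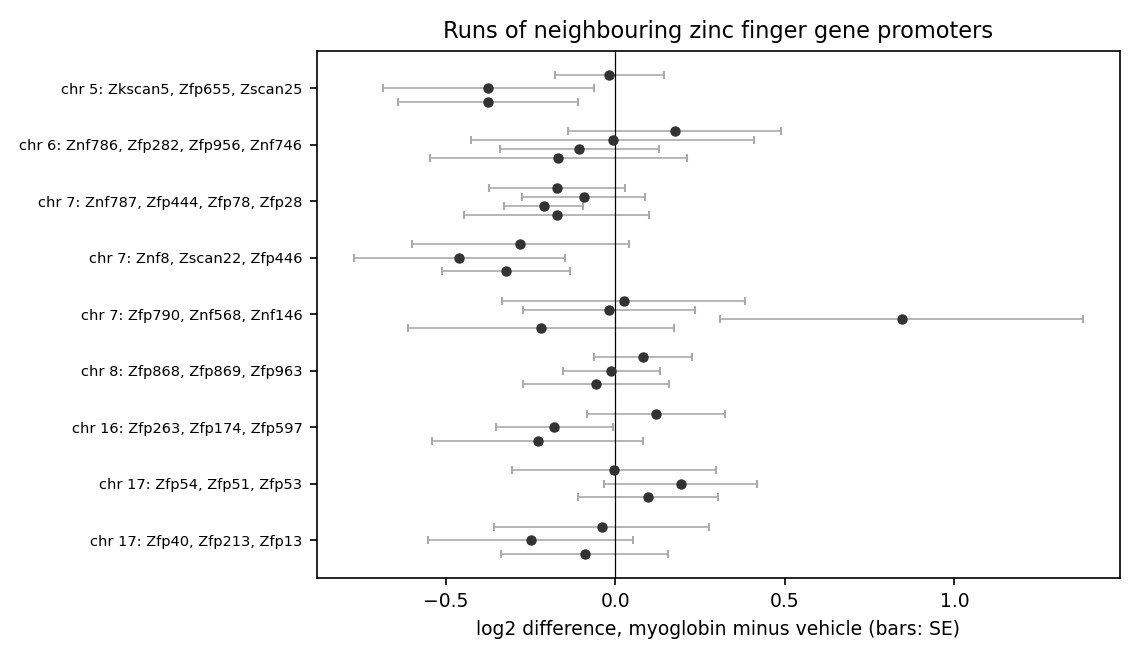
Log2 difference, myoglobin minus vehicle (x axis), of each member peak in the 9 runs of neighbouring zinc finger genes, in rows by run, with SE bars. All points in the Znf8 and Znf787 runs lie below 0, between -0.46 and -0.09, and the highest point is the Znf146 peak at 0.85.

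By distance from the start site, the peaks farthest out had the lowest median. The median difference was -0.04 for the 69 peaks within 100 bp and -0.01 for the 48 at 100 to 500 bp. For the 9 peaks at 500 to 1000 bp it was -0.25, with 8 of 9 below 0, beside -0.06 and 55.2% below 0 for the 268 other promoters at that distance. Znf143, Znf687 and Znf219 belong to these 9. The member just inside the limit was Znf219 at 958 bp (means 12.2 and 7.75), and the nearest peak outside it was Zbtb7b at 1014 bp (37.2 ± 5.96 and 29.0 ± 3.56). Either end of another coding gene's span, start or finish, lay within 1000 bp of the peak centre at 15 members (11.9%) and at 20.1% of other promoters. All 119 member genes were matched to RefSeq, but only 3830 of all 4038 genes with a promoter peak were. The own span of an unmatched gene can count as another gene in the share of other promoters. The size of this effect was not tested.

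In sequence, member promoters were poorer in G and C than other promoters. In 300-base RefSeq windows (250 bases before the start to 50 after), available for 93 member genes and 2969 other genes, GGGCGG (the Sp/KLF site) was present in 53.8% of members and 78.8% of others, and in 35.7% of all 32851 windows. The median G and C content was 58.7% against 64.0%, and the ratio of observed to expected CpG was 0.72 against 0.817. CACGTG (an E box) was in 3.23% against 10.6%. CCAAT (NF-Y) was in 51.6% against 49.7%, CCGGAAG (ETS) in 21.5% against 19.9%, and ACTACAA (part of the Zfp143 motif) in 7.53% against 5.56%. The motifs of injury and hormone response were TGANTCA (AP-1) at 3.23% against 4.34%, TGANNNNGC (antioxidant response) at 46.2% in both, and AGAACA (part of the glucocorticoid response element) at 11.8% against 9.6%. Over all 32851 windows the shares were 7.81% for TGANTCA, 41.3% for TGANNNNGC and 19.0% for AGAACA. The other 4 motifs were GCGCATGCG (NRF1), AAGATGGCG (YY1), TGACGTCA (CRE) and TATAAA, the TATA box, at 5.38%, 4.3%, 2.15% and 2.15% of members. Both strands were searched, TGACGTCA and CACGTG read the same on both, and AP-1 and antioxidant matches can overlap. A match describes letters only. GGGCGG is made of G and C alone, and the part of base composition in its share was not tested. Member genes with GGGCGG had a median difference of -0.01 and those without it -0.03.

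**Figure D5:**
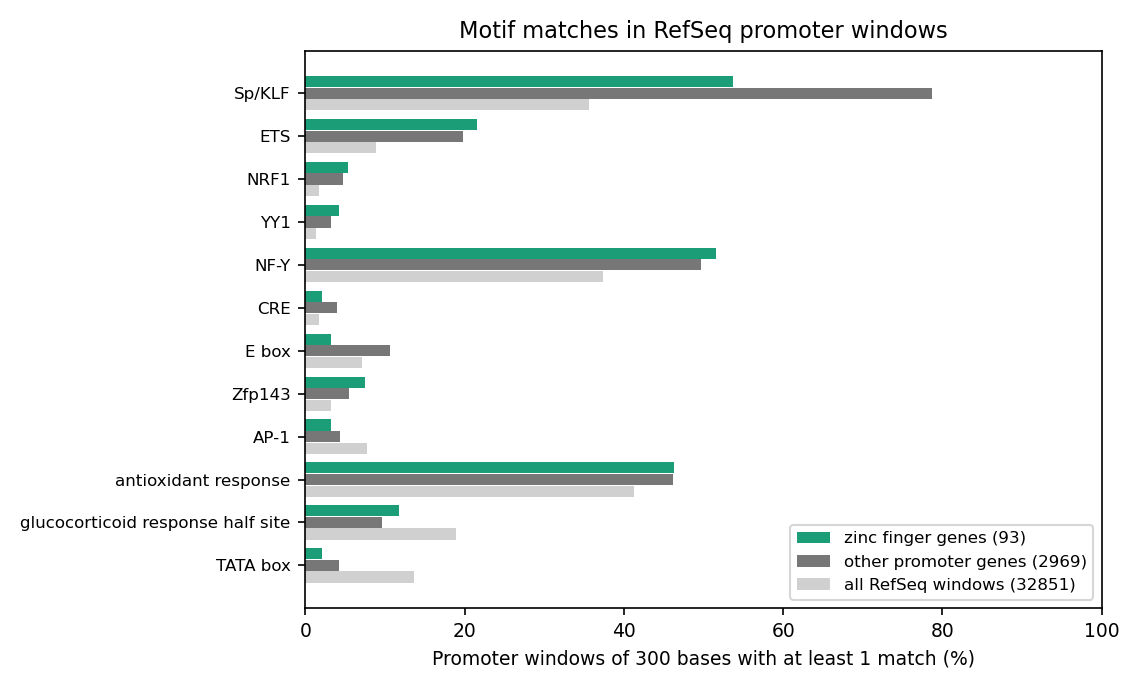
Percent of 300-base promoter windows holding each motif, for 93 member genes, 2969 other genes with a promoter peak and all RefSeq windows. GGGCGG is in 53.8% of members and 78.8% of others.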

How the data were processed

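ATAC-seq was compared between 4 vehicle and 4 myoglobin libraries. The submitters' processing notes list DESeq2 1.36.0, DESeq, featureCounts, Picard 3.0.0, STAR 2.7.10a, Trimmomatic 0.39 and the build mm10. Their order, the peak caller and any Tn5 shift are not given in the sources used here. The deposited values are a score: whole numbers per peak and library that behave as reads multiplied by a factor per library and rounded, so no count test was used. Factors were estimated by maximum likelihood from the steps in each column, and the method was tested on simulated data.

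Values were fitted with limma 3.58.1 in R 4.3.3 on log2(value + 1), with treatment as the only term, a variance trend and no filter, and adjusted over 6425 peaks by Benjamini-Hochberg at 0.05. The prior carried 78.5 degrees of freedom beside 6 from the libraries, so limma's SE of a peak rests mostly on the trend over all peaks. Differences on this scale understate the change of low peaks. Exact two-sided permutation tests used all 70 assignments. RefSeq tables of GRCm38.p6, the assembly mm10 names, gave gene symbols (119 of 119 members matched, 41 under another symbol) and promoter sequences. The members and gene lists were chosen with earlier results of these data known. Named members were those with non-overlapping groups, the 5 highest and 3 lowest by the mean over all 8 libraries, a list of well-known genes, the 2 corepressor genes with the smallest p, genes with more than 1 member peak and those nearest the distance limit. Protein sequences were not used here. Alternatives were other scalings, pseudocounts of 0.1 and 5, a filter at a mean of 10, library weights, a square-root scale, stricter distances, a replicate block and each library left out.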

Additional observations from a re-analysis of the deposited data

Results flagged for a closer look

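In the 68 groups of 4 libraries behind the named member peaks, 2 had a library far from the others by Dixon's test, where chance flags about 1 in 20 groups, or 3.4 of 68. At the Znf146 peak 111 bp from the start site, myoglobin replicate 2 was highest at 8, and the other 3 myoglobin libraries were each at 4. At the Zfp976 peak, myoglobin replicate 2 was lowest at 3, and the others were each at 4. Both are among the 3 members with the lowest mean over all 8 libraries, and the test meets tied small whole numbers there.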

How the results depend on the processing

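The median difference of the members was below 0 under all 19 alternatives, from -0.05 to -0.02. The count of called members was 0 except for Znf143, which made it 1 with a pseudocount of 5 (difference -0.90, adjusted p = 0.0463), with library weights (-1.28, adjusted p = 0.0172) and without myoglobin replicate 3 or 4, so leaving out 1 library gave 0 to 1; the cause was not tested. At an unadjusted p under 0.05 there were 7 to 15 members with a library left out (7 without vehicle replicate 1, against 11), and 5 among members within 100 bp, where fewer peaks were tested. Within 100 bp the members' share of promoter value was 2.64% with vehicle and 2.58% with myoglobin, and the vehicle median was 13. No pairing by library number was seen: same-numbered libraries correlated at -0.0132 to 0.0258 in their deviations, and other pairs at -0.0615 to 0.0386. With few reads per peak this check cannot exclude a pairing. With the replicate number as a block, 0 members were called and Znf143 had a limma adjusted p of 0.105. The calls over all peaks then went from 16 to 10. Over all peaks, leaving out vehicle replicate 1, 2 or 4 gave 7, 9 or 8 calls, and a pseudocount of 0.1 gave 9. Of the named peaks, some with a main difference between -0.25 (Zfp438 at 383 bp) and 0.21 (Zfp36l2 at 660 bp) changed sign when a library was left out. They were Zfp868 (-0.007 to 0.17), Zfp976 (-0.0919 to 0.38), Zscan29 (-0.48 to 0.33), Zfp36l2 at 111 bp (-0.21 to 0.11) and 660 bp (-0.0207 to 0.47), Zfp809 (-0.0045 to 0.18), Znf568 (-0.10 to 0.0422), Znf146 at 318 bp (-0.45 to 0.0782), Zfp788 at 303 bp (-0.12 to 0.18), Znf367 at 930 bp (-0.27 to 0.0262) and Zfp438 at 383 bp (-0.67 to 0.19). Other changes of sign were Znf568 with library weights (0.0015) and without myoglobin replicates 2 and 3 (0.0199), Zfp788 at 303 bp on the square-root scale (-0.0014) and Znf367 at 233 bp without those libraries (0.0305). Restriction to members with a finger pattern in the protein was not run. Estimated reads, of 67606 in the shallowest library, limit what small differences at low peaks can show.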
